A study of Canis lupus familiaris with 29 samples.

Results

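The genes described here carry, convert and sense retinoids, the vitamin A compounds, here in MDCKII, an epithelial line from dog kidney. They are 8 of the 24223 gene rows measured: RBP4, STRA6, CRABP2, RDH10, DHRS3, RARA, RARB and RARG. They were taken by gene name, and each name matched 1 row. The set was chosen by FPKM values of these same libraries, because RBP4 and DHRS3 were higher in 3D cysts than in the cells used for seeding. The differences of the cysts from those cells are therefore given as a description, with no test.

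Retinol travels in blood bound to RBP4, and STRA6 is the membrane receptor that takes retinol from that carrier into cells. Inside the cell RDH10 oxidises retinol to retinal, DHRS3 reduces retinal back to retinol, and aldehyde dehydrogenases turn retinal into retinoic acid. CRABP2 hands retinoic acid to the nuclear receptors RARA, RARB and RARG, which bind DNA with RXR partners. In kidney development this pathway takes part in branching of the collecting duct system, and liver is the main source of RBP4 in blood.

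RNA was sequenced from 29 libraries in 13 groups, and expression is given as FPKM, fragments per kilobase of transcript scaled to the mapped fragments of the library, a unit that is per length. Wild-type 3D cultures on matrigel, in which the cells form hollow cysts, gave 2 libraries at each of 24 h, day 3, day 5 and day 8 and 1 library at day 14. Wild-type 2D cultures on transwell inserts, past confluence, gave 3 libraries each at day 4 and day 11. Knockdown cells (KD), depleted of either DENND5A or AVL9, genes of DENN domain proteins of membrane traffic, were taken at day 0 and at 2D day 4 (n = 2 each), and DENND5A-KD cells also at 2D day 7 (n = 2). Wild-type cells at day 0, before plating in either format, were the baseline (n = 4). The labels number the DENND5A-KD samples 1 and 2 and the AVL9-KD samples 1 and 4, and each number is called a line here. Whether a line is a clone or a separate hairpin is not stated, and no control line treated in the same way is among the samples. Nothing in the labels makes the replicates separate cultures, so a p-value here reflects only sample-to-sample spread, possibly technical.

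Total FPKM ran from 276017 to 441332 per library, and depth relative to day 0 replicate 2 from 0.446 to 1.68. Among wild-type libraries 5 stood apart. These were the day 14 library and the replicate 1 libraries of 2D day 4, day 0, 3D day 8 and 3D day 3. Their relative depth was 0.446 to 0.71, against 0.826 to 1.1 in the other 14 wild-type libraries, and TIMM13, a mitochondrial import chaperone gene, was listed at 0 in each of them, while every other library had 30.9 to 397 FPKM. In the 4 groups with replicates that hold such a library, it had the lowest RBP4 and the lowest DHRS3 of its group in 4 of 4, and the highest RDH10, RARA and RARG in 3 of 4 each. In 3D day 3 and 3D day 8, with 2 libraries each, a library can only be the lowest or the highest. The same count over all genes was not made. The targeted genes were lower in the cells labelled with their knockdown, DENND5A by a log2 difference of -1.16 ± 0.12 at day 0 and -1.28 ± 0.13 at 2D day 4, and AVL9 by -1.70 ± 0.14 and -1.91 ± 0.15 (± standard error, SE). Of the epithelial markers, CDH1, EPCAM and CDH16 summed to 345 to 735 FPKM, whereas hepatocyte markers summed to at most 0.119 FPKM and fibroblast markers to at most 0.490 FPKM in any library. The proximal tubule markers summed to 1.36 to 5.96 FPKM, with CUBN in every library (1.32 to 5.96 FPKM) and LRP2 listed at 0 in every group.

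RBP4, DHRS3 and RDH10 were the members with the widest ranges of level, RARA and RARG varied less, and STRA6, CRABP2 and RARB were at or near 0 in most libraries. Of the 8 members, 6 reached 1 FPKM in at least 2 libraries and entered the fit across all 11774 genes that did so. CRABP2 never exceeded 0.129 FPKM and was above 0 in 15 libraries. RARB, a receptor gene that retinoic acid is known to induce, never exceeded 0.0523 FPKM and was above 0 in 7 libraries. Differences below are log2 differences of FPKM + 1 from limma, in which changes at low FPKM come out too small, and adjusted p-values are Benjamini-Hochberg values over all genes tested.

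RBP4 (ENSCAFG00000007893) peaked in mid-stage cysts. It had 11.0, 15.9, 15.1 and 18.8 FPKM at day 0, 25.0 and 29.7 FPKM in 24 h cultures, 223 and 251 FPKM in day 3 cysts, 400 and 282 FPKM in day 5 cysts, and 144 and 210 FPKM in day 8 cysts. The day 14 library read 119 FPKM. Each 3D group lay above day 0 with no overlap, the day 5 pair was above every other library, and both day 8 libraries lay below both day 3 libraries. The last point depends on scaling. After median-ratio scaling between libraries the means were 363 at day 5, 230 at day 3 and 207 at day 8, and the ranges of days 3 and 8 overlapped. The log2 difference from day 0 was 0.82 at 24 h, 3.90 at day 3, 4.40 at day 5 and 3.46 at day 8. In a bulk sample, more cells with a transcript and more transcript per cell cannot be told apart.

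**Figure D1:**
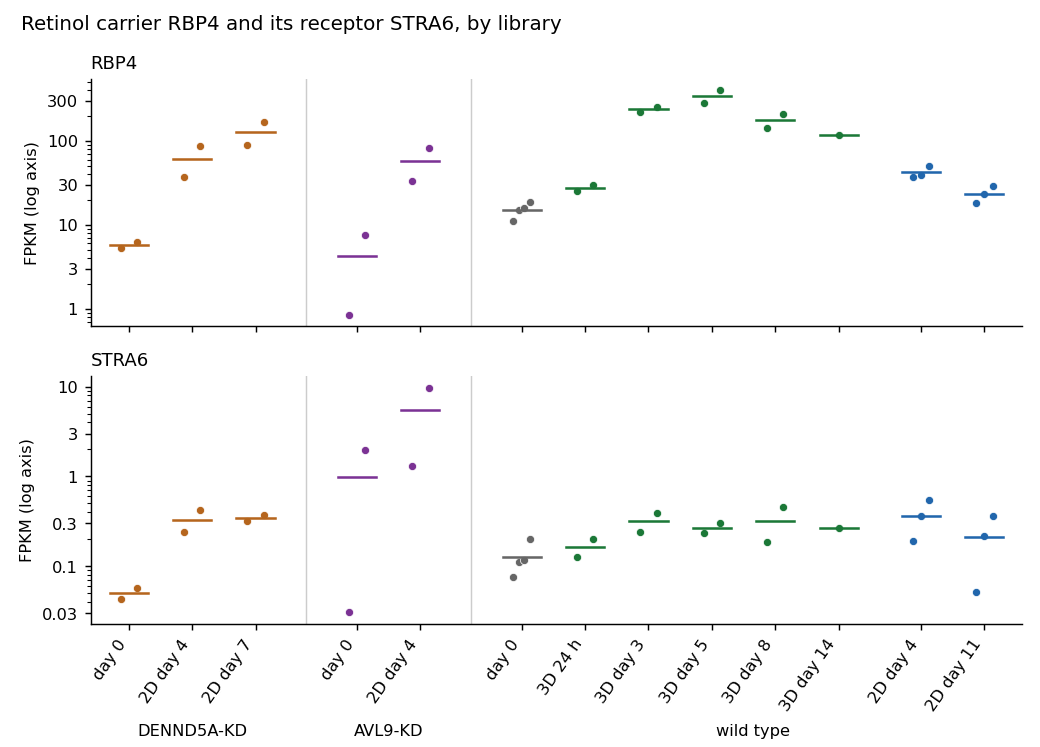
FPKM of RBP4 and STRA6 in each of 29 libraries on a log axis, by group, with knockdown groups left of wild-type groups, each dot a library and each line a group mean. RBP4 was highest in day 5 cysts (400 and 282 FPKM), and STRA6 exceeded 1 FPKM in 3 AVL9-KD libraries.

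RBP4 was also above baseline on inserts, at a lower level than in cysts. It had 37.0, 50.5 and 39.6 FPKM at 2D day 4 and 23.3, 18.3 and 29.1 FPKM at 2D day 11, against 11.0 to 18.8 FPKM at day 0. The day 4 libraries lay above all day 0 libraries, and the day 11 range overlapped that of day 0. The 6 cyst libraries of days 3 to 8 (144 to 400 FPKM) did not overlap the 6 insert libraries (18.3 to 50.5 FPKM), a log2 difference of 2.90 ± 0.30 that is given with no test, since cysts entered the choice of RBP4.

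Over all 13 groups, RBP4 ran in the order 3D day 5, 3D day 3, 3D day 8, DENND5A-KD 2D day 7, 3D day 14, DENND5A-KD 2D day 4, AVL9-KD 2D day 4, wild-type 2D day 4, 3D 24 h, wild-type 2D day 11, wild-type day 0, DENND5A-KD day 0 and AVL9-KD day 0. Without further scaling, neighbours from 3D day 8 to 3D day 14 overlapped in range. So did neighbours from DENND5A-KD 2D day 4 to wild-type 2D day 4, from 3D 24 h to wild-type day 0, and the knockdown groups at day 0. The group means thus spanned 341 ± 83.6 FPKM in day 5 cysts (SD, n = 2) and 4.21 ± 4.77 FPKM in AVL9-KD cells at day 0 (SD, n = 2).

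STRA6 (ENSCAFG00000017877), the receptor for RBP4-bound retinol, was low in every wild-type and DENND5A-KD library, with at most 0.543 FPKM. It read 0.184 to 0.456 FPKM in the 6 cyst libraries of days 3 to 8 and 0.0757 to 0.203 FPKM at day 0, and these ranges overlapped. Reads above this level were found in AVL9-KD cells, and they are described with the knockdowns below. STRA6 passed the filter on low values through 3 AVL9-KD libraries alone, so that group had to differ, and the values of STRA6 in AVL9-KD cells are given with no test. In the other groups it was tested at levels near 0, with a spread that takes in the AVL9-KD lines. A test of STRA6 there could hardly pass, so its results below do not show an unchanged level.

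RDH10 (ENSCAFG00000008031), which makes retinal, was near its starting level at 24 h and above it from day 3 on. It had 16.3, 25.9, 17.6 and 32.8 FPKM at day 0, 22.8 and 24.3 FPKM in 24 h cultures, 90.4 and 71.1 FPKM in day 3 cysts, 87.6 and 138 FPKM in day 5 cysts, and 142 and 110 FPKM in day 8 cysts. At 24 h the values lay inside the day 0 range, and from day 3 on all lay above it. The log2 difference from day 0 was 0.08, 1.80, 2.25 and 2.44 at these 4 times, and the day 14 library read 124 FPKM. On inserts RDH10 had 49.8, 43.6 and 42.7 FPKM at day 4 and 75.9, 84.8 and 51.7 FPKM at day 11, all above day 0.

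DHRS3 (ENSCAFG00000016376), which returns retinal to retinol and is itself a gene that retinoic acid induces in other systems, was low in the cells used for seeding and far higher in every group from day 3 on. It had 0.406, 1.15, 1.14 and 1.88 FPKM at day 0, 3.59 and 2.65 FPKM in 24 h cultures, 20.2 and 36.0 FPKM in day 3 cysts, 63.2 and 62.7 FPKM in day 5 cysts, and 53.8 and 63.0 FPKM in day 8 cysts. Every 3D group lay above day 0, already at 24 h, and the day 8 range spanned the day 14 value (59.7 FPKM) and overlapped that of day 5. The log2 difference from day 0 was 0.98, 3.76, 4.95 and 4.83. In RefSeq's dog annotation, which is of another assembly, the DHRS3 locus overlaps 3 other loci, and strand use in counting is not given in the sources used here.

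On inserts DHRS3 had 24.8, 33.0 and 36.3 FPKM at day 4 and 26.7, 29.9 and 37.4 FPKM at day 11. The 2 days did not differ beyond their spread, with a log2 difference of 0.00 ± 0.22. The cysts of days 3 to 8 (20.2 to 63.2 FPKM) overlapped the inserts in range, with a log2 difference of 0.57 ± 0.16 that is again a description. In the order of groups DHRS3 was highest in cysts of days 5, 14 and 8, of which day 8 overlapped the other two, then in DENND5A-KD 2D day 7, the other insert groups and 3D day 3, with 3D 24 h, wild-type day 0 and the knockdown groups at day 0 last.

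The ratio of DHRS3 to RDH10, 2 enzymes of opposite direction, was lower at day 0 than in any later group. It was 0.0249 to 0.0650 at day 0, 0.109 to 0.157 in 24 h cultures, 0.224 to 0.722 in cysts of days 3 to 8 and 0.481 in the day 14 library. Inserts of wild-type cells gave 0.352 to 0.850. Knockdown cells at 2D day 4 had 0.579 to 0.830, inside the wild-type range of that day (0.498 to 0.850). DENND5A-KD cells at 2D day 7 had 1.09 and 1.25, above the wild-type insert range, but no wild-type library was taken at that day. At day 0 knockdown cells had 0.00739 to 0.0286, which reached below the wild-type range and overlapped it. These are ratios of transcript levels per length, not of enzyme activities.

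**Figure D2:**
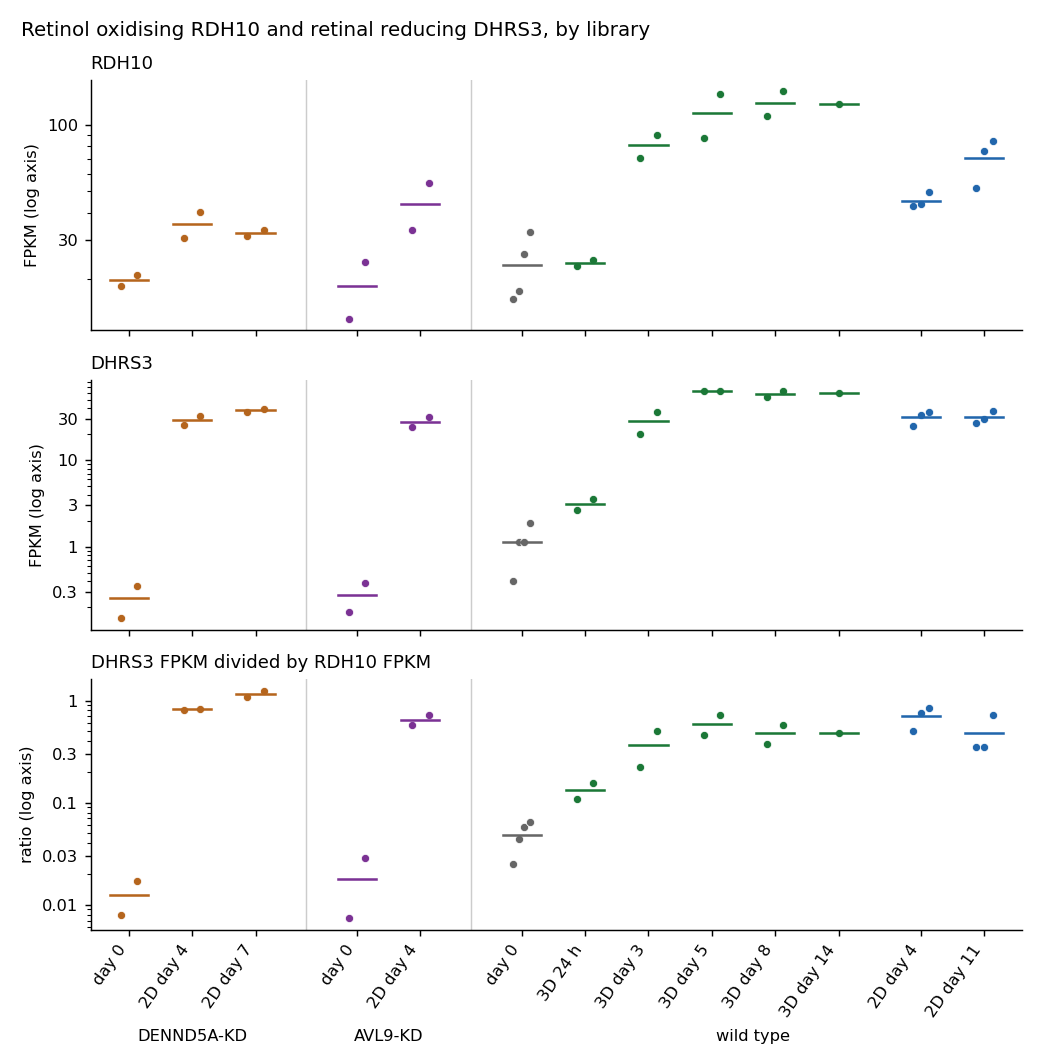
FPKM of RDH10 and DHRS3 and the ratio of DHRS3 to RDH10 in each of 29 libraries on log axes, by group, each dot a library and each line a group mean. DHRS3 lay between 20.2 and 63.2 FPKM in cysts of days 3 to 8 and between 0.406 and 1.88 FPKM in wild-type day 0 libraries.

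RARA (ENSCAFG00000016060), the most abundant of the 3 receptors per length, stayed close to its starting level through cyst growth. It had 6.03 to 8.04 FPKM in the 8 libraries of 3D cultures from 24 h to day 8 and 5.93 to 7.50 FPKM at day 0, and the log2 difference from day 0 was 0.10, -0.08, 0.15 and 0.00 at the 4 times. The day 14 library read 8.60 FPKM. On inserts it had 11.0, 10.7 and 8.91 FPKM at day 4 and 10.4 to 13.1 FPKM at day 11, all above every day 0 library and every cyst library.

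RARG (ENSCAFG00000007050) was higher in cysts and on inserts than at day 0, at a level below that of RARA in every group. It had 0.912, 1.23, 0.842 and 0.840 FPKM at day 0, 1.37 and 1.20 FPKM in 24 h cultures and 1.85 to 2.28 FPKM in cysts of days 3 to 8. From day 3 on no cyst library overlapped day 0, and the log2 difference was 0.23, 0.69, 0.58 and 0.63 over the 4 times. On inserts it had 3.25, 2.60 and 1.74 FPKM at day 4 and 2.64, 2.79 and 2.51 FPKM at day 11, and DENND5A-KD cells at 2D day 7 had the highest group mean, 4.17 ± 0.387 FPKM (SD, n = 2). In the order of the 13 groups, the 5 insert groups of wild-type and knockdown cells held the first 5 places for RARA and for RARG alike. The neighbours among these 5 overlapped in range for RARA, and for RARG they overlapped except between DENND5A-KD 2D day 4 and wild-type 2D day 11.

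**Figure D3:**
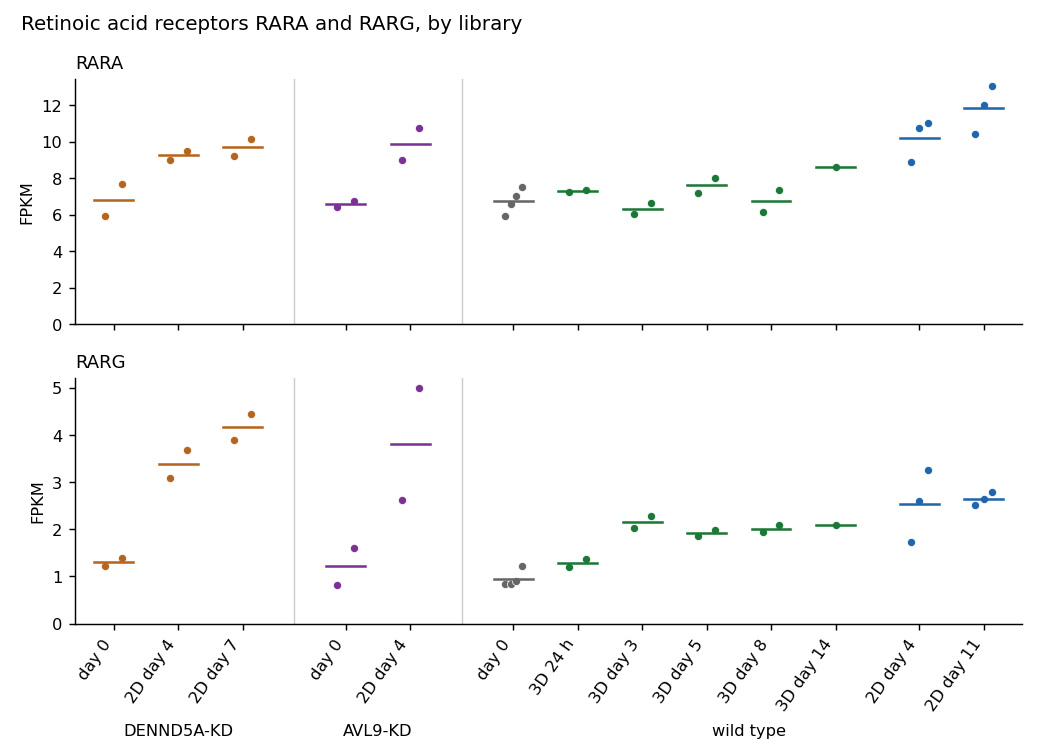
FPKM of RARA and RARG in each of 29 libraries on linear axes from 0, by group, each dot a library and each line a group mean. RARA lay at 6.03 to 8.04 FPKM in 3D cultures up to day 8 and at 8.91 to 13.1 FPKM on wild-type inserts, beside 5.93 to 7.50 FPKM at day 0.

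Cysts and inserts were compared by test for the members whose choice did not rest on cysts. The formats were sampled on different days, so format and day in culture cannot be told apart. Between cysts of days 3, 5 and 8 and inserts of days 4 and 11, RDH10 was higher and RARA lower in cysts. RDH10 had 71.1 to 142 FPKM in the 6 cyst libraries and 42.7 to 84.8 FPKM in the 6 insert libraries, ranges that overlapped, with a log2 difference of 0.87 ± 0.18 (adjusted p = 0.000478). RARA had 6.03 to 8.04 FPKM in cysts and 8.91 to 13.1 FPKM on inserts with no overlap, a log2 difference of -0.60 ± 0.08 (adjusted p = 3.29e-06). RARG (-0.23 ± 0.12, adjusted p = 0.104) and STRA6 (0.02 ± 0.26, adjusted p = 0.953) did not pass. That is 2 of 4 members tested, where 56.9% of all genes passed, so the share is near the background. Without the 5 libraries that stand apart RDH10 gave 0.79 (adjusted p = 0.00702) and RARA -0.63 (adjusted p = 7.5e-05), and without replicate 3 of 2D day 4 RARG passed at -0.32 (adjusted p = 0.0251).

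The change with time on inserts was set against the same day 0 libraries that entered the choice of RBP4 and DHRS3, so for these genes it is given with no test. Their log2 differences from day 0 at 2D day 4 were 3.94 ± 0.21 for DHRS3 and 1.43 ± 0.40 for RBP4. Of the other members, 3 of 4 tested were higher at 2D day 4 than at day 0, where 59.9% of all genes passed in either direction and 30.3% were higher. They were RDH10 (0.99 ± 0.24, adjusted p = 0.00152) and the receptors RARG (0.83 ± 0.16, adjusted p = 0.00014) and RARA (0.53 ± 0.11, adjusted p = 0.000209), and STRA6 did not pass (0.27 ± 0.35, adjusted p = 0.523). Without the 5 libraries that stand apart 3 members passed as well, with RDH10 at 0.78 (adjusted p = 0.0308).

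At 2D day 11 the log2 difference from day 0 was 3.95 ± 0.21 for DHRS3 and 0.60 ± 0.40 for RBP4, again with no test. Of the other members, 3 of 4 were higher than at day 0, where 55.9% of all genes passed and 32.2% were higher. RDH10 differed by 1.60 ± 0.24 (adjusted p = 1.64e-05), RARG by 0.90 ± 0.16 (adjusted p = 7.68e-05) and RARA by 0.72 ± 0.11 (adjusted p = 9.29e-06). Without the 5 libraries these still passed, with adjusted p-values of 9.04e-05 for RARA, 0.000208 for RDH10 and 0.000389 for RARG. Between 2D day 11 and 2D day 4, limma called none of the 6 members, where 2.08% of all genes passed. RDH10, with a log2 difference of 0.60 ± 0.26, was the 1 member with an unadjusted p under 0.05 (adjusted p = 0.266). RBP4 had a log2 difference of -0.83 ± 0.43 (adjusted p = 0.366), with no overlap between the days.

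**Figure D4:**
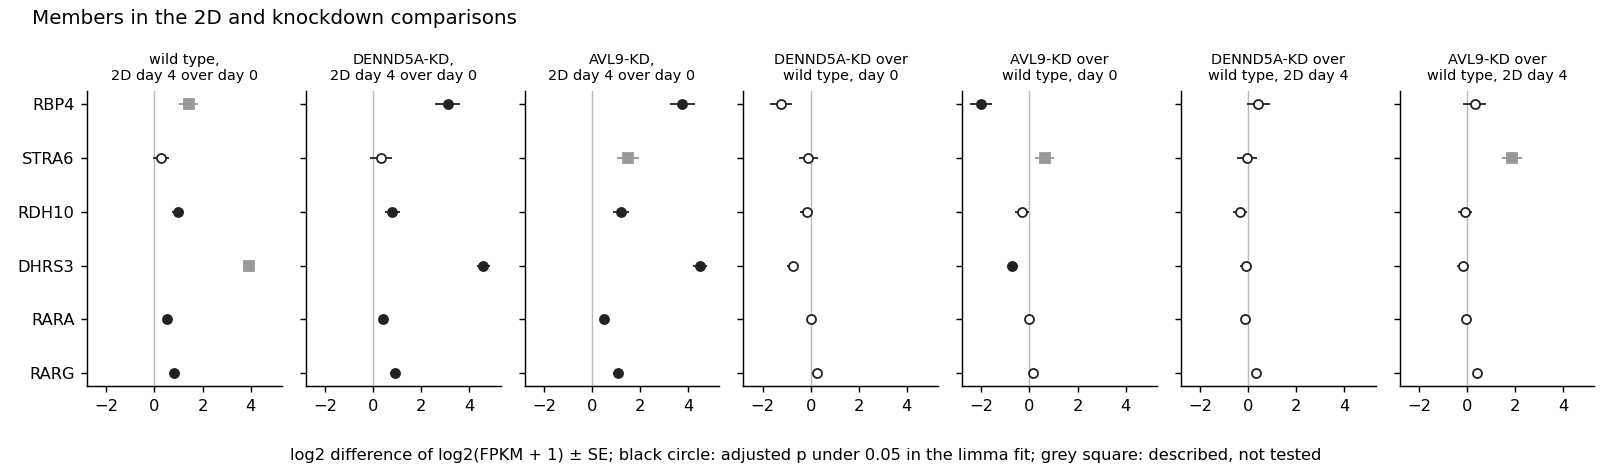
Log2 difference of FPKM + 1 with its SE for the 6 members that passed the filter, in 7 comparisons, with black circles where the adjusted p was under 0.05, open circles where it was not, and grey squares where no test was made. DHRS3 had the widest differences between inserts and day 0, 3.94 ± 0.21 at 2D day 4 in wild-type cells.

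In the knockdown cells the same change could be measured against their own day 0 libraries, which the choice of members had not used. In DENND5A-KD cells, 5 of 6 members were higher at 2D day 4 than at day 0, where 42.3% of all genes passed and 20.1% were higher. RBP4 had 37.1 and 86.3 FPKM at 2D day 4 and 5.29 and 6.18 FPKM at day 0 (3.102 ± 0.52, adjusted p = 0.000114). DHRS3 had 25.4 and 32.8 FPKM at 2D day 4 and 0.149 and 0.356 FPKM at day 0 (4.58 ± 0.28, adjusted p = 2.53e-09). For both genes the days did not overlap in either line. RARG (0.92 ± 0.21, adjusted p = 0.00148), RARA (0.40 ± 0.14, adjusted p = 0.0237) and RDH10 (0.80 ± 0.32, adjusted p = 0.049) passed as well. The RDH10 call was lost without each of the 4 libraries in turn (adjusted p up to 0.264) and without the expression filter (0.0781), and that of RARA without 3 of the 4, with adjusted p-values of 0.268 without day 0 line 1, 0.0539 without 2D day 4 line 1 and 0.12 without 2D day 4 line 2.

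In AVL9-KD cells, 5 of 5 members tested were higher at 2D day 4 than at day 0, where 53.9% of all genes passed and 31.1% were higher. RBP4 had 33.1 and 83.4 FPKM at 2D day 4 and 0.839 and 7.59 FPKM at day 0 (3.76 ± 0.52, adjusted p = 6.85e-06). DHRS3 had 24.0 and 31.6 FPKM at 2D day 4 and 0.176 and 0.380 FPKM at day 0 (4.49 ± 0.28, adjusted p = 1.02e-09). Neither gene overlapped between the days. RARG (1.099 ± 0.21, adjusted p = 0.000187), RDH10 (1.21 ± 0.32, adjusted p = 0.00325) and RARA (0.51 ± 0.14, adjusted p = 0.00387) also passed. Fitted on these 4 libraries alone, DHRS3 was the 1 member that kept its call (RBP4 adjusted p = 0.0518). Without line 4 at 2D day 4, RARA (adjusted p = 0.0599) and RDH10 (0.069) lost theirs, as did RDH10 without line 4 at day 0 (0.0766). Between 2D day 7 and 2D day 4 of DENND5A-KD cells limma called none of the 6 members, where 0.0510% of all genes passed. RBP4, with 90.2 and 166 FPKM at day 7 and 37.1 and 86.3 FPKM at day 4, was the 1 member with an unadjusted p under 0.05 (1.098 ± 0.52, adjusted p = 0.791).

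At day 0 the carrier RBP4 and the retinal reductase DHRS3 lay below every wild-type library in both knockdowns, and the differences passed in AVL9-KD but not in DENND5A-KD cells. The comparisons of the 2 knockdowns share the wild-type libraries, which also entered the choice of RBP4 and DHRS3 as the side with lower values. The day 0 p-values of these genes carry that choice in both knockdowns. RBP4 had 0.839 and 7.59 FPKM in AVL9-KD cells, against 11.0, 15.9, 15.1 and 18.8 FPKM in wild-type cells. DHRS3 had 0.176 and 0.380 FPKM in AVL9-KD cells, against 0.406 to 1.88 FPKM in wild-type cells. Both genes were lower in AVL9-KD cells with no overlap, RBP4 by a log2 difference of -2.005 ± 0.45 (adjusted p = 0.00514) and DHRS3 by -0.71 ± 0.24 (adjusted p = 0.0457). These were 2 of 5 members tested, where 18.0% of all genes passed and 4.59% were lower. The RBP4 call ended without line 1 of AVL9-KD (-0.89, adjusted p = 0.241) and on the 2 groups alone (adjusted p = 0.112). The DHRS3 call ended under both other scalings, with no filter, on the groups alone and without 5 of the 6 libraries in turn (adjusted p up to 0.275), and its adjusted p was 0.00239 without the 5 libraries that stand apart.

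At day 0 the DENND5A-KD libraries had RBP4 at 5.29 and 6.18 FPKM, against 11.0 to 18.8 FPKM in wild-type cells. DHRS3 had 0.149 and 0.356 FPKM in DENND5A-KD cells, against 0.406 to 1.88 FPKM in wild-type cells. Neither gene overlapped between the genotypes, and limma called none of the 6 members, where 5.52% of all genes passed. At an unadjusted p under 0.05 there were 2, RBP4 (-1.25 ± 0.45, adjusted p = 0.142) and DHRS3 (-0.73 ± 0.24, adjusted p = 0.0855). DHRS3 passed without the 5 libraries that stand apart (-0.92, adjusted p = 0.00421), without day 0 replicate 1 (adjusted p = 0.014) and with a pseudocount of 0.1 (-1.73, adjusted p = 0.00714). RBP4 passed on the groups alone (adjusted p = 0.0326). RDH10, RARA and RARG overlapped between each knockdown and wild-type cells at day 0, except that the RARG values of DENND5A-KD cells (1.38 and 1.23 FPKM) lay at or above the highest wild-type value (1.23 FPKM) without passing (adjusted p = 0.64).

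On inserts at day 4 neither RBP4 nor DHRS3 passed in either knockdown. RBP4 had 37.1 and 86.3 FPKM in DENND5A-KD cells and 33.1 and 83.4 FPKM in AVL9-KD cells, against 37.0 to 50.5 FPKM in wild-type cells, and all ranges overlapped. DENND5A-KD cells had none of the 6 members called by limma, and none at an unadjusted p under 0.05, where 11.3% of all genes passed. The change of the knockdown difference between day 0 and 2D day 4 was tested as an interaction, which passed in 1.83% of all genes for DENND5A-KD and in 1.22% for AVL9-KD. It uses the wild-type day 0 libraries, which entered the choice of RBP4 and DHRS3, so its p-values for these genes carry that choice. For RBP4 the interaction was 1.67 ± 0.66 in DENND5A-KD cells (adjusted p = 0.248) and 2.32 ± 0.66 in AVL9-KD cells (adjusted p = 0.103). With the replicate or line number as a block, since each line was sampled on both days, it passed, at 1.57 ± 0.35 (adjusted p = 0.0219) for DENND5A-KD and 2.22 ± 0.35 (adjusted p = 0.00511) for AVL9-KD. For AVL9-KD it also passed without line 4 at day 0 (3.44, adjusted p = 0.00408) and without line 1 at 2D day 4 (2.98, adjusted p = 0.0435), and with DENND5A-KD no library left out gave a call.

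STRA6 had its highest levels in AVL9-KD cells, mostly in 1 line. It had 1.30 FPKM in line 1 and 9.78 FPKM in line 4 at 2D day 4, against 0.359, 0.543 and 0.191 FPKM in wild-type cells. At day 0 it had 0.0306 FPKM in line 1 and 1.96 FPKM in line 4, against 0.0757 to 0.203 FPKM in wild-type cells. Both AVL9-KD lines lay above wild type on inserts, whereas at day 0 line 1 was the lowest library of the series and line 4 was above all wild-type libraries. The log2 difference of STRA6 was 1.87 ± 0.42 at 2D day 4 and 0.63 ± 0.40 at day 0, and between the days in AVL9-KD cells it was 1.51 ± 0.46. Of the other members, limma called none of 5 at 2D day 4, where 21.0% of all genes passed, and 1 had an unadjusted p under 0.05. This was RARG (0.42 ± 0.19, adjusted p = 0.116), which passed without line 4 (0.79, adjusted p = 0.0123) or without wild-type replicate 1 (0.57, adjusted p = 0.0464).

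Relative depth also differed among these libraries. Line 4 had the higher STRA6 on both days, and a relative depth of 1.68 at day 0 and 0.54 at 2D day 4, while line 1 had 0.688 and 1.64. The 4 endothelial markers summed to 0.719 to 0.994 FPKM in AVL9-KD cells at 2D day 4, against 0.170 to 0.355 FPKM in wild-type cells, and KDR was 0.299 to 0.836 FPKM of it. Of the other endothelial markers, PECAM1 and CDH5 were at most 0.00984 and 0.0282 FPKM in AVL9-KD cells there, and TIE1 made up the rest of each sum. The part of depth or of other cells in the STRA6 values was not tested. DENND5A-KD cells had 0.239 and 0.420 FPKM of STRA6 at 2D day 4, with no overlap with AVL9-KD cells. Between the knockdowns limma called none of the 5 members tested, at 2D day 4, where 22.4% of all genes passed, or at day 0, where 4.12% did, and none had an unadjusted p under 0.05. Without AVL9-KD line 4, the day 0 level of RBP4 was higher in DENND5A-KD than in AVL9-KD cells (1.87, adjusted p = 0.0333).

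ALDH1A1, which oxidises retinal to retinoic acid, was the 1 gene tested of 6 listed for retinoic acid synthesis and breakdown, and in wild-type libraries its levels per length were above those of RDH10 and DHRS3. It had 86.7, 159, 150 and 181 FPKM at day 0, 289 and 295 FPKM in 24 h cultures, 660 and 663 FPKM in day 3 cysts, 704 and 523 FPKM in day 5 cysts and 478 and 389 FPKM in day 8 cysts. All cyst libraries lay above day 0, and ALDH1A1 was higher at day 3 (2.24 ± 0.31, adjusted p = 9.49e-06), at day 5 (2.12 ± 0.31, adjusted p = 1.09e-05) and at day 8 (1.63 ± 0.31, adjusted p = 0.000154). Of all genes, 51.0%, 57.6% and 62.8% passed at these times. The 24 h difference was 1.06 ± 0.31 and did not pass (adjusted p = 0.105), where 1.19% of all genes did. At 2D day 4 it had 523, 391 and 370 FPKM and was higher than at day 0 by 1.60 ± 0.28 (adjusted p = 4.99e-05). Its excess in cysts over inserts, 0.55 ± 0.21 (adjusted p = 0.0303), was 0.20 with quantile normalization (adjusted p = 0.447). The retinoic acid hydroxylases CYP26A1 and CYP26B1 reached 0.273 and 0.227 FPKM in the highest library, and ALDH1A2 was listed at 0.

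At day 0 ALDH1A1 was lower in both knockdowns, and lowest in the library with the lowest RBP4. It had 20.8 and 58.0 FPKM in AVL9-KD cells and 59.4 and 51.0 FPKM in DENND5A-KD cells, against 86.7 to 181 FPKM in wild-type cells. It was lower by 1.96 ± 0.31 in AVL9-KD cells (log2 difference -1.96, adjusted p = 0.000269) and by 1.32 ± 0.31 in DENND5A-KD cells (log2 difference -1.32, adjusted p = 0.0137), and no knockdown library overlapped wild type. On the groups alone neither passed (adjusted p = 0.0792 and 0.0832), and the DENND5A-KD call ended without line 2 (adjusted p = 0.185) and without line 1 (0.0853). On inserts at day 4 it had 337 and 425 FPKM in DENND5A-KD and 232 and 439 FPKM in AVL9-KD cells, against 370 to 523 FPKM in wild-type cells, and the ranges overlapped. LRAT, which esterifies retinol for storage, had 0.0153 and 0.478 FPKM in AVL9-KD cells, against 1.90 to 2.14 FPKM in wild-type cells, and was lower by 1.29 ± 0.28 (log2 difference -1.29, adjusted p = 0.00338), a call that ended without line 1 (adjusted p = 0.0905).

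The other retinoid genes came from lists of carriers, enzymes, receptor partners and genes known to be induced by retinoic acid, 59 listed and 29 tested. On inserts at day 4, 17 of 29 were higher and 5 lower than at day 0, with a median log2 difference of 0.37, against 0.00 over all genes, of which 59.9% passed and 30.3% were higher. In day 8 cysts 9 were higher and 10 lower than at day 0, with a median of -0.18, against -0.13 over all genes, and 62.8% of all genes passed. The list's median was 0.03 there with quantile normalization. Of the binding partners and coregulators of the receptors, 9 of 10 tested were higher at 2D day 4 than at day 0, with a median of 0.53, beside the 30.3% of all genes that were higher. RXRB, a partner of the retinoic acid receptors, had 11.9 to 15.9 FPKM at 2D day 4 and 5.18 to 5.82 FPKM at day 0 (1.15 ± 0.11, adjusted p = 2.01e-08). The coactivators NCOA2 (1.19, adjusted p = 8.62e-08) and NCOA1 (1.102, adjusted p = 3.78e-07) were higher as well.

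In day 8 cysts the calls of the same receptor partners were near the shares of all genes in each direction. Of the 10, 3 were higher and 4 lower than at day 0, where 62.8% of all genes passed, 24.7% higher and 38.0% lower. Their median was -0.21, against -0.13 over all genes. With quantile normalization 3 were higher and 1 lower, where 30.8% of all genes were higher and 33.2% lower. The median was then 0.08, so its sign turned. RXRB had 12.9 and 13.8 FPKM in day 8 cysts and 5.18 to 5.82 FPKM at day 0 (1.12 ± 0.12, adjusted p = 1.53e-07). Set directly against inserts, 9 of the 10 were lower in cysts, with a median of -0.68, against -0.08 over all genes, of which 56.9% passed and 34.8% were lower. With median-ratio scaling 8 were lower, with a median of -0.58, where 30.2% of all genes were lower. RXRA, the partner with higher levels than RXRB at day 0, had 7.35 to 11.0 FPKM in cysts of days 3 to 8 and 15.2 to 20.2 FPKM on inserts (-0.78 ± 0.09, adjusted p = 7.08e-07). The coactivator CREBBP was lower in cysts too (-0.79, adjusted p = 4.34e-07).

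Among 7 retinol, retinal and ester enzymes tested, 2 were higher and 3 lower at 2D day 4 than at day 0, and 2 were higher and 3 lower at 3D day 8 than at day 0. That is 5 of 7 passed at each, beside 59.9% of all genes at 2D day 4 and 62.8% at 3D day 8. RDH5, a retinol dehydrogenase known from the visual cycle, had 7.21 and 7.25 FPKM in day 8 cysts and 0.953 to 1.30 FPKM at day 0 (1.98 ± 0.20, adjusted p = 6.73e-08), and was higher in cysts than on inserts (0.83 ± 0.13, adjusted p = 3.01e-05). LRAT was higher at 2D day 4 (1.23, adjusted p = 0.000218), and DHRS9, which oxidises retinol in skin and other epithelia, was lower in day 8 cysts (-1.18, adjusted p = 4.89e-05). RDH13 was lower at 2D day 4 (-0.79, adjusted p = 0.000357). Of 10 carrier and uptake genes 1 was tested, CUBN, a receptor that takes up filtered carriers in the proximal tubule. It was higher at 2D day 4 than at day 0 (0.76, adjusted p = 0.00144) and lower in cysts than on inserts (-1.02, adjusted p = 5.28e-06).

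Of 10 genes known to be induced by retinoic acid in other cells, 3 were higher and 3 lower at 3D day 8 than at day 0, and 4 were higher and 2 lower at 2D day 4. That is 6 of 10 passed at each, near the 62.8% and 59.9% of all genes. HOXA3, a homeobox gene, was higher in day 8 cysts (1.70, adjusted p = 6.94e-09) and at 2D day 4 (1.36, adjusted p = 2.07e-08). RARRES1 was higher at 2D day 4 (1.14, adjusted p = 0.000125) and in day 8 cysts (1.25, adjusted p = 0.00016). GPRC5A, an orphan receptor of the plasma membrane, went the other way, with 5.77 and 7.18 FPKM in day 8 cysts and 34.2 to 62.7 FPKM at day 0 (-2.63 ± 0.23, adjusted p = 1.37e-08). TGM2, tissue transglutaminase, had 6.11 and 8.95 FPKM in AVL9-KD cells at 2D day 4, against 0.0769 to 0.690 FPKM in wild-type cells, with both lines above all wild-type libraries. Like STRA6, TGM2 reached 1 FPKM in knockdown libraries alone, so its log2 difference of 2.67 ± 0.26 is given with no test.

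**Figure D5:**
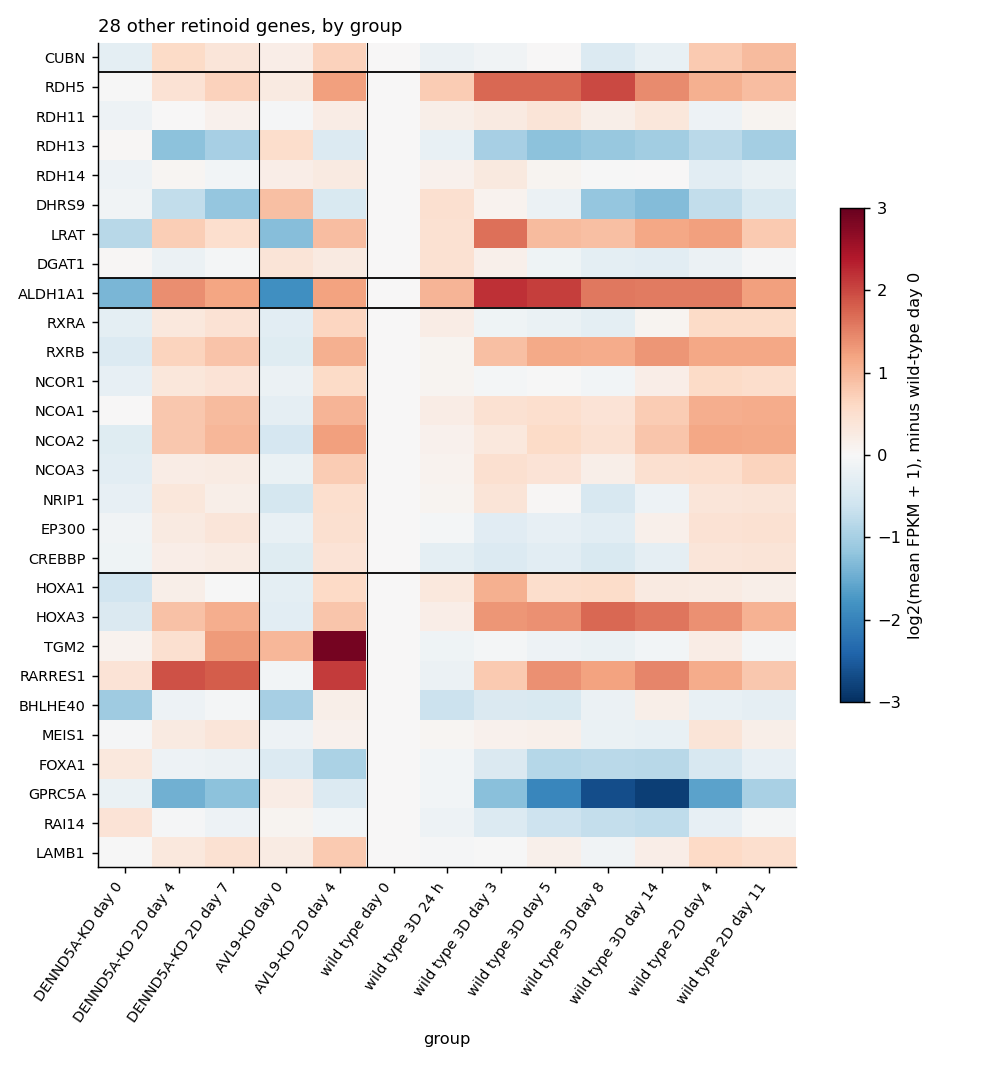
Log2 of mean FPKM + 1 minus that of wild-type day 0 for 28 of the 29 other retinoid genes tested (rows, by list) in 13 groups (columns), on a colour scale. By the limma differences, which average after the log and so are not the drawn values, RXRB was higher in day 8 cysts (1.12) and at 2D day 4 (1.15). By the same measure GPRC5A was lower in day 8 cysts (-2.63).

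Between knockdown and wild-type cells at day 0, none of the 29 listed genes was higher and 3 were lower in DENND5A-KD cells, where 5.52% of all genes passed. In AVL9-KD cells 4, TGM2 among them, were higher and 6 lower, where 18.0% of all genes passed. With median-ratio scaling 2 were higher and 11 lower, where 9.34% of all genes were higher and 9.78% lower. TGM2 reached 1 FPKM in knockdown libraries alone, so its place in this count and in that at 2D day 4 is a description. BHLHE40, a transcription factor gene on the retinoic acid induced list, was lower in both, by -1.06 (adjusted p = 0.00711) in DENND5A-KD and -0.99 (adjusted p = 0.00626) in AVL9-KD cells on the log2 scale, and the DENND5A-KD call ended without line 1 (adjusted p = 0.0912) or line 2 (0.0905) and the AVL9-KD call without line 4 (0.0595). At 2D day 4, 1 gene was higher and 2 lower in DENND5A-KD cells, near the 11.3% of all genes that passed. In AVL9-KD cells 6, TGM2 among them, were higher and 1 lower, near the 21.0% of all genes. With median-ratio scaling 3 were higher and 3 lower, where 7.54% of all genes were higher and 7.44% lower. The median of all genes was itself 0.19 higher in AVL9-KD than in wild-type cells at 2D day 4 and 0.11 higher at day 0, on the log2 scale. With quantile normalization these medians were 0.00 and -0.01, and no direction of a member that had passed turned under any scaling tried.

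Across the 13 group means on the log2 scale, which share libraries between genes and are given with no test, RBP4 ran with DHRS3 (r = 0.874) and with RDH10 (r = 0.810), and RDH10 with DHRS3 (r = 0.847). RARA ran with RARG (r = 0.738) and hardly with RBP4 (r = 0.107). Of 8076 genes compared, those with the profile most like that of RBP4 were PPP1R3C (r = 0.974), TSPAN15 (r = 0.961), NMRK1 (r = 0.961), C9orf142 (r = 0.955) and HOXA2 (r = 0.947). PPP1R3C, a glycogen-targeting subunit of a phosphatase, averaged 33.0 FPKM in day 5 cysts, against 2.66 FPKM at day 0. The closest to DHRS3 were OSCP1 (r = 0.988), ABCD4 (r = 0.987), CCDC30 (r = 0.985), DHRS1 (r = 0.985) and ARMC9 (r = 0.985). OSCP1 averaged 18.1 FPKM in day 5 cysts and 16.4 FPKM at 2D day 4, against 1.96 FPKM at day 0. In 9 of these 10 genes the lowest group mean was that of AVL9-KD cells at day 0, and in TSPAN15 it was that of DENND5A-KD cells at day 0. RBP4 and DHRS3 also had their lowest means in knockdown cells at day 0, so choosing genes by likeness to them favours such a count. The share over all genes was not counted.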

How the data were processed

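The authors deposited FPKM values, 1 file per library for 29 MDCKII libraries. The submitters' processing notes name HISAT2 2.1.0 and Cufflinks 2.2.1 as tools and canFam3 or CanFam3.1 as dog build, without saying which did what, and any scaling across libraries is not given in the sources used here. Absolute depth is unknown, and relative depth comes from the spacing of FPKM values below 0.15. The 11774 genes that reached 1 FPKM in 2 or more libraries entered a limma fit (version 3.58.1, R 4.3.3) of log2(FPKM + 1) with a trended variance and a mean for each group. Tests were 2-sided, with Benjamini-Hochberg adjustment over these genes and a threshold of 0.05. The steps were tested on simulated data. For the members, cyst comparisons with day 0 were left untested, while other retinoid genes were tested there. RBP4 and DHRS3 between wild-type inserts and day 0 or cysts, and STRA6 in AVL9-KD cells, were also left untested. These choices were made in part after seeing the data.

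Members, gene lists and comparisons were chosen with earlier results of these data known. Besides the 8 members, the text names up to 3 genes of each list and comparison with the widest differences among those that passed, DENND5A and AVL9, and the 5 genes most like RBP4 or DHRS3 by correlation over group means, among those with at least 5 FPKM in their highest group. Of the list genes, 1 is counted but not reported by name here. The main fit held no pairing. For the replicate block, same-numbered libraries were taken as paired between 2D day 4 and day 0 in wild-type cells (correlation of deviations 0.558, 0.233 and 0.13). By line, they were paired within a knockdown (AVL9-KD 0.358, DENND5A-KD 0.0101 to 0.0966). The 0.558 is between libraries that both stand apart. Replicate 1 of day 0 had 0.504 with that of 3D day 3, which also stands apart, and 0.0365 with that of 2D day 11, which does not. Pairing and standing apart cannot be told apart there. Each fit was repeated with a pseudocount of 0.1, with no filter, under quantile or median-ratio scaling, with a replicate block, on only the groups compared, and without each library in turn. A batch term for the 5 libraries that stand apart, their omission, and the block for AVL9-KD 2D day 4 against day 0 were added after seeing the data. Names of overlapping loci came from RefSeq's table of the assembly UU_Cfam_GSD_1.0, which is not the files' build, so no coordinates were used. Gene names that matched no row were not used here. Files were read and figures drawn in Python 3.11.15 (matplotlib 3.10.9, numpy 2.4.6, pandas 2.3.3).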

Additional observations from a re-analysis of the deposited data

Results flagged for a closer look

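CRABP2, the cytosolic carrier of retinoic acid, read 0.0771 FPKM in replicate 1 of day 0 and 0 in the other 3 libraries, a gap that set that library apart from its group (0.07705 before rounding). With the others at 0 any value above 0 would be marked, so the chance rate of about 1 in 20 groups need not hold here. That library is one of the 5 that stand apart. RDH10 and RARA differed between 2 formats of culture by a direct test, with cysts of days 3 to 8 higher than inserts by a log2 difference of 0.87 for RDH10 (0.8705) and lower by 0.60 for RARA (-0.6023). The ranges of RDH10 overlapped between the formats and those of RARA did not. Because the formats were sampled on different days, format and day in culture cannot be told apart.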

How the results depend on the processing

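Of 78 tests of members, 20 passed, 8 of these failed under at least 1 alternative and 12 under none tried. No member that passed turned its sign among 1082 alternative values. Members were not counted under alternatives in comparisons of cysts with day 0 or 24 h, which entered their choice. Of 125 tests of named list genes, those of TGM2 included, 40 failed under some alternative and none turned its sign. Groups of 2 to 4 libraries, FPKM without counts and a pseudocount that damps low genes limit what can be detected.

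Counts of members called moved as follows. For 2D day 11 against day 4 it was 0, and 1 with the replicate block, which was RBP4 (-0.83, adjusted p = 0.046). For DENND5A-KD against wild type at day 0 it was 0, and 1 with a pseudocount of 0.1, the groups alone, the batch term or without the 5 libraries, with 0 to 1 on leaving out a library. For AVL9-KD against wild type at day 0 it was 2, then 1 with quantile normalization, median-ratio scaling or no filter and 0 on the groups alone, with 0 to 2 on leaving out a library. At 2D day 4 it was 0 for AVL9-KD against wild type, with 0 to 1 on leaving out a library. For 2D day 4 against day 0 it was 5 in DENND5A-KD (3 to 4 on leaving out a library) and 5 in AVL9-KD cells (1 on the groups alone, 3 to 5 on leaving out a library). The interactions gave 0, and with the replicate block 1 for each knockdown (0 to 1 on leaving out a library for AVL9-KD). DENND5A-KD against AVL9-KD gave 0 at day 0 (0 to 1 on leaving out a library). The count for 3D against 2D was 2 (2 to 3 on leaving out a library). Where numbers do not pair, the block also brought RARG in 3D against 2D to -0.26 (adjusted p = 0.0164). Same-numbered wild-type libraries had correlations of -0.16 to 0.558 over 41 pairs, 19 of them over 0.1. The block changed no other call of a member.

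Counts over all genes moved by over 1.5 times for 3D 24 h (140, then 220, 314 and 16 with quantile, median-ratio and groups alone), 2D day 11 against day 4 (245, then 375 quantile, 2 groups alone, 483 block, 386 batch term), DENND5A-KD day 7 against day 4 (6, then 127, 88, 0, 21, 14 and 23 with quantile, median-ratio, pseudocount, no filter, block and batch term) and the knockdown comparisons. On the groups alone DENND5A-KD against wild type gave 400 in place of 650 at day 0 and 97 in place of 1334 at 2D day 4 (2069 with quantile), AVL9-KD against wild type 342 in place of 2118 and 25 in place of 2474, AVL9-KD day 4 against day 0 3502 in place of 6346, and DENND5A-KD against AVL9-KD 5 in place of 485 (856 batch term) and 0 in place of 2640 (1543 median-ratio). Interactions gave 215 for DENND5A-KD (459, 462, 74 and 445 with quantile, median-ratio, groups alone and block) and 144 for AVL9-KD (15 groups alone, 252 block). The share of called genes that were higher was 74.5% in AVL9-KD at day 0 and 88.9% at 2D day 4, against 48.5% and 53.1% with quantile normalization, and 39.4% at 3D day 8 and 38.9% in 3D against 2D, against 50.9% and 50.1% with median-ratio scaling. The cause of these shifts was not tested.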
